A study of Homo sapiens with 18 samples.

Results

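The Notch pathway genes described here are 10 human genes chosen by symbol from a table of normalized counts that holds values for 35933 genes. They are the receptors NOTCH1, NOTCH2 and NOTCH3, the ligands JAG1, JAG2 and DLL1, the glycosyltransferase LFNG, and the target genes HES1, HEY1 and HEY2. They were chosen as members of the pathway, by name and not by a threshold on their values, but with earlier results of these data known. RNA was sequenced from the breast epithelial line MCF10A, which immortalized spontaneously, from MCF10AT1, made from it by stable integration of a mutated HRas, and from MCF10CA1h, obtained from MCF10AT1 by serial mouse xenografts. Each line was studied as cells given a negative CRISPR construct and as cells labelled METTL3 knockdown, giving 6 groups of 3 libraries, lettered a, b and c, and 18 libraries in all. METTL3 is the methyltransferase that writes N6-methyladenosine on RNA, and the construct was aimed at its exon 1. All 6 groups had been transfected and passed through sorting for mCherry and growth from single cells, and each group is 1 such line. Differences between clones are therefore not in the spread between libraries, and whether METTL3 or the choice of clone set a difference cannot be told apart.

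Notch receptors sit in the membrane and are activated when a Jagged or Delta ligand on a neighbouring cell pulls on them. Proteases of the ADAM family and then gamma-secretase cut the receptor, and its freed inner domain joins the DNA-binding protein RBPJ and a Mastermind protein to switch on genes such as HES1, HEY1 and HEY2, which encode repressors. LFNG adds sugars to the receptor and alters which ligands it answers to. In the breast the pathway takes part in the choice between basal and luminal cell fate.

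METTL3 RNA itself stood at 128.1%, 88.5% and 70.8% of the control mean in MCF10A, MCF10AT1 and MCF10CA1h. Exact permutation tests, two-sided, gave p = 0.5, 0.3 and 0.1, where 0.1 is the smallest value that 3 against 3 libraries allow. The MCF10A level does not lie below its control, so the cells are called METTL3 lines here after their labels. The paper reports less METTL3 protein by Western blot in the knockdown lines of each cell line. By real-time PCR it reports a smaller decrease of METTL3 RNA. The normalized counts summed to between 21347352 and 31681834 per library. Of the marker genes, the 6 basal epithelial genes summed to at least 80213.0 in every control library, while CDH5 and VWF of the endothelial list and PTPRC and CD3E of the leukocyte list had group means of at most 3.50. Other genes of these lists were higher. PECAM1 had a mean of 457.7 in MCF10A METTL3 against 84.1 in its control, and 501.6 and 517.2 in MCF10AT1 METTL3 and control. CD14 had a mean of 2075.1 in MCF10AT1 METTL3 against 897.9 in its control. The endothelial sum of 5 genes lay between 46.1 and 866.5 over the 18 libraries, and the leukocyte sum of 4 genes between 58.0 and 2342.5. The MCF10AT1 METTL3 libraries stood apart from the rest. Their basal sum was 11024.5 to 12648.6, and their sum over 11 mesenchymal genes was 118755.9 to 207410.1 against 4128.6 to 5411.6 in the MCF10AT1 control. CDH1, the epithelial cadherin, lay at 11.6 to 79.2 against 2104.6 to 6138 there. CDH1 is 1 of 6 general epithelial genes, whose sum overlapped between these groups, at 23361.1 to 48062.7 against 44870.9 to 78315.2. Of these genes EPCAM (78.8 to 125.9 against 3493.9 to 4290.6) and ESRP1 (0 to 25.4 against 1584.3 to 2715.7) were also lower without overlap. KRT8 and KRT18, which make up most of the sum, and KRT19 had lower means with overlap. Some genes went against the sum of their list. TP63 of the basal list had a higher mean (559.1 against 357.3). COL1A1 (81.8 against 117.1) and PDGFRB (19.0 against 21.8) of the mesenchymal list had lower means. The part of these marker differences in the Notch results of MCF10AT1 was not tested. In bulk RNA, fewer cells that express a gene and less RNA per cell cannot be told apart.

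RBPJ binds DNA at the core letters TGGGAA, and the promoters of 3 genes that were all lower in the MCF10AT1 METTL3 line are printed to show where those letters lie. Each run is the 250 bases before the gene's start, read 5′ to 3′ on the gene's strand, from RefSeq on GRCh38.p14, and capitals mark TGGGAA on either strand. HES1 is on chr3:194135898-194136147, plus strand, NOTCH1 on chr9:136546049-136546298, minus strand, and NOTCH3 on chr19:15200996-15201245, minus strand.
HES1: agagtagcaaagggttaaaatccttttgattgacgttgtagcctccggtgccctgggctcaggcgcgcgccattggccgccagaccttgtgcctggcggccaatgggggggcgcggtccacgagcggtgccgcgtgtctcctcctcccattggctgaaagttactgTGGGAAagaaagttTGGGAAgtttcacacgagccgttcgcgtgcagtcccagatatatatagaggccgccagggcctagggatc
NOTCH1: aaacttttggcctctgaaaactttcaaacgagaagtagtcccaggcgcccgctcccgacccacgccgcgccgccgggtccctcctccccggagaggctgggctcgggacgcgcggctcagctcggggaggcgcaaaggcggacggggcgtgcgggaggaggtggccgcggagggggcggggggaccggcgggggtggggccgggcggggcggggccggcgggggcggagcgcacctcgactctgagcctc
NOTCH3: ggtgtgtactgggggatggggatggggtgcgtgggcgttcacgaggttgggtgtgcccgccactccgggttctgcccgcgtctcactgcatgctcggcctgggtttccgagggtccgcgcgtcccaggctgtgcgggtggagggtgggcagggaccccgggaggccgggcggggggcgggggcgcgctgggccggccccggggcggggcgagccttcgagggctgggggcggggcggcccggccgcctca
The HES1 run holds the letters at 84 and at 70 bases before the start, both on the gene's own strand and facing the same way. The NOTCH1 and NOTCH3 runs do not hold them. Promoters of 8 of the 10 genes were used, 9 in all since LFNG has a second, and 3 of these 9 hold the letters, in HES1, in LFNG and in HEY2. DLL1 and HEY1 were not used here. Over 35116 promoters of the table, 20.8% hold the letters in the same window, so a match alone is common.

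Each METTL3 line was compared with the control of its own line by limma on log2 of the normalized count plus 1, over all genes with a mean of at least 10. A gene is said to have risen or fallen where its Benjamini-Hochberg adjusted p was under 0.05, and log2 fold changes are given with their standard error (SE). HEY2 stayed below that mean in every fit, so 9 of the 10 genes were tested, and DLL1 reached it in MCF10A and MCF10AT1 through the METTL3 libraries. In MCF10A 2 of the 9 genes rose and none fell, where 2.65% of 15416 genes passed the threshold, 1.16% as higher and 1.49% as lower. In MCF10AT1 1 gene rose and 3 fell, against 13.0% of 16050 genes, 7.07% higher and 5.96% lower. In MCF10CA1h none rose and 2 fell, against 12.8% of 15127 genes, 7.91% higher and 4.85% lower. Without adjustment 4, 5 and 4 of the 9 genes had p under 0.05 by limma, beside 2839, 4425 and 4230 of all genes tested in the 3 lines. The median log2 fold change of the 9 genes was 0.31, -0.17 and -0.31 in the 3 lines, beside -0.0035, 0.021 and -0.019 over all genes tested. Of the genes past the threshold in MCF10CA1h, 62.0% were higher in the METTL3 line as deposited, and 50.2% when the libraries were rescaled to equal sums. With the replicate letter as a block, 7.60% of all genes passed in MCF10A and 24.5% in MCF10AT1, and 3 and 5 of the 9 Notch genes.

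**Figure D1:**
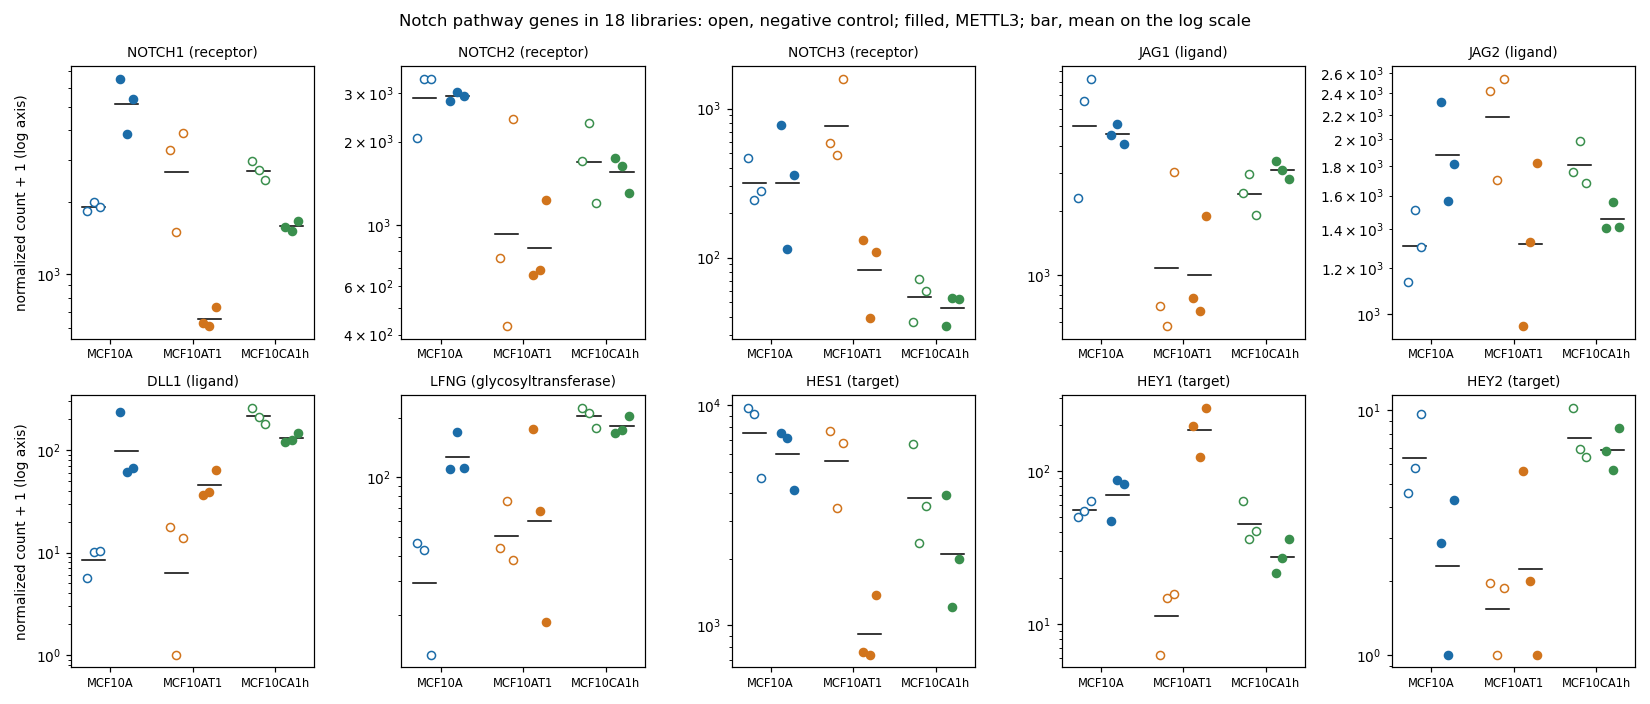
Normalized count plus 1 of each of the 10 genes on a log axis, 1 point per library, with open points for the negative control, filled points for the METTL3 line and a bar at the mean on the log scale. NOTCH1 lies above its control in MCF10A and below it in MCF10AT1 and MCF10CA1h, with no overlap of the groups in any line.

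NOTCH1, the receptor on chromosome 9 (136494433 to 136546048, GRCh38), changed in all 3 lines and not in the same direction. In MCF10A the control libraries a, b and c had 1836, 1996 and 1914 normalized counts and the METTL3 libraries 6525, 3849.7 and 5381. All METTL3 libraries were above all controls, and NOTCH1 rose by 1.42 (SE 0.20, adjusted p = 0.0143) on the log2 scale, which is 2.68-fold. In MCF10AT1 the controls had 3292, 1501 and 3870.0 and the METTL3 libraries 626, 607 and 728. Here the order was turned around with a gap between the groups, and NOTCH1 fell with a log2 fold change of -2.04 (SE 0.38, adjusted p = 0.00953). In MCF10CA1h it went from 2951, 2721 and 2467 to 1580.1, 1520.5 and 1666, a fold change of -0.77 on the log2 scale (SE 0.10, adjusted p = 0.00107). The standard error was the smallest of the 3 lines, and the groups again did not overlap.

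The effect on NOTCH1 differed between every pair of lines when the difference itself was tested in 1 fit of the 18 libraries, in which 21.6% of 15897 genes differed between MCF10AT1 and MCF10A, 5.34% between MCF10CA1h and MCF10A, and 18.2% between MCF10CA1h and MCF10AT1. The effect in MCF10AT1 minus that in MCF10A was -3.46 (SE 0.38, adjusted p = 6e-06). In MCF10CA1h minus MCF10A it was -2.19 (SE 0.38, adjusted p = 0.00256). MCF10CA1h minus MCF10AT1 gave 1.27 (SE 0.38, adjusted p = 0.0284), a call that was lost without MCF10AT1 control a or c, MCF10AT1 METTL3 a or b, MCF10CA1h control b or c, or MCF10CA1h METTL3 a or c (adjusted p from 0.0523 to 0.0729). The rise in MCF10A lost its call without control b, METTL3 a or METTL3 c (adjusted p = 0.0571, 0.0575 and 0.0713). The fall in MCF10AT1 lost it without control a or METTL3 b (adjusted p = 0.0558 and 0.0527). The fall in MCF10CA1h kept it with any 1 library left out, at 0.00778 or less, but in a joint fit of the 18 libraries the adjusted p was 0.238.

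Of the other receptors, NOTCH3 fell in MCF10AT1 and NOTCH2 passed the test in no line. NOTCH3 (chromosome 19, 15159038 to 15200995) had 585, 484 and 1586 normalized counts in the MCF10AT1 controls and 130.0, 38.0 and 108 in the METTL3 libraries. It fell with a log2 fold change of -3.22 (SE 0.60, adjusted p = 0.0097), 9.33-fold, and the groups did not overlap. In MCF10A the NOTCH3 libraries spread widely, with 464, 244 and 279.7 in the controls and 775, 113 and 356 in the METTL3 libraries. The METTL3 values there enclosed those of the controls, and the log2 difference of -0.01 had a 95% interval from -1.42 to 1.41. In MCF10CA1h NOTCH3 was low in both groups, 36.0 to 71.0 in the controls and 33.6 to 52.4 in the METTL3 libraries (adjusted p = 0.69). The NOTCH3 effect in MCF10AT1 differed from that in MCF10A by -3.22 (SE 0.87, adjusted p = 0.0136), and the effect in MCF10CA1h from that in MCF10AT1 by 2.99 (SE 0.87, adjusted p = 0.0247). The second of these calls was lost without MCF10AT1 control c or METTL3 b, MCF10CA1h control a, or MCF10CA1h METTL3 b or c (adjusted p from 0.0545 to 0.071).

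NOTCH2 (chromosome 1, 119911553 to 120100779) had adjusted p from 0.754 to 0.97. Its controls and METTL3 libraries ranged from 2069 to 3379 and from 2812 to 3017 in MCF10A, from 428 to 2419 and from 658 to 1232 in MCF10AT1, and from 1199 to 2331 and from 1299 to 1742 in MCF10CA1h. The groups overlapped in every line. The 95% interval of the log2 difference ran from -0.45 to 0.50 in MCF10A. In MCF10AT1 it was wider, with an SE of 0.60 on a difference of -0.17. The table also lists 4 near-identical NOTCH2NL genes, and how reads were split between them and NOTCH2 is uncertain. NOTCH2NLC, the most abundant of them, had 440 to 1049 normalized counts in the MCF10AT1 controls and 1032 to 1372 in the METTL3 libraries.

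**Figure D2:**
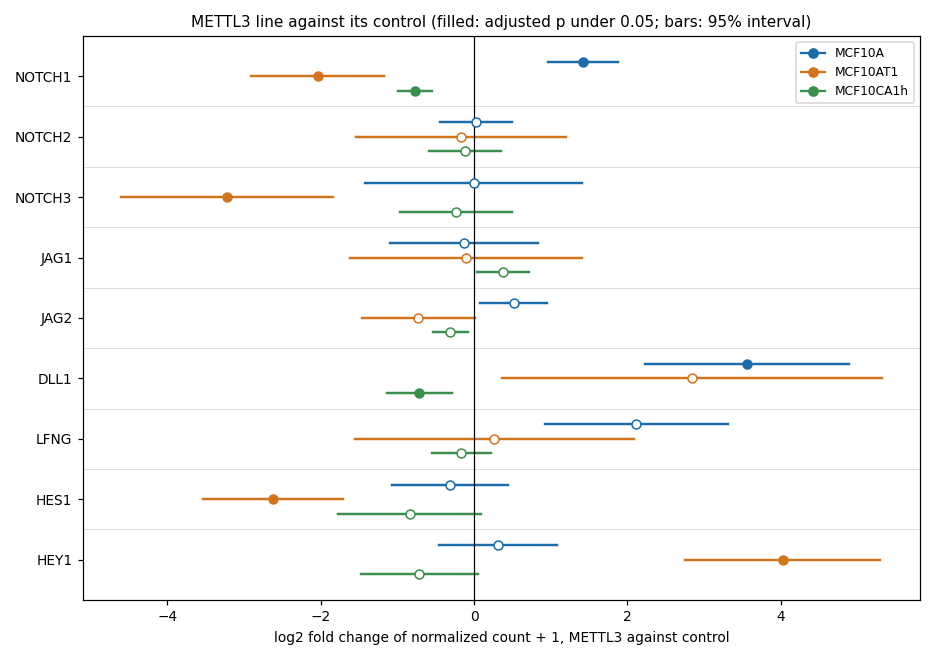
log2 fold change of the METTL3 line against its own control for the 9 genes tested, with 95% intervals from limma and filled points where the adjusted p was under 0.05. NOTCH1 is the only gene with a filled point in each of the 3 lines, and HEY1 at 4.03 in MCF10AT1 is the highest value.

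The level of some receptors and ligands moved with a feature of the whole library. The median level of genes with a transcript of at least 6000 bases minus that of genes under 2000 bases, in log2, was 0.08 in MCF10A control a against 0.92 and 0.91 in controls b and c. It was 0.59 in MCF10AT1 control c against -0.66 and -1.29 in controls a and b, and -1.30, -1.24 and -0.50 in the METTL3 libraries of that line. In MCF10CA1h it lay between -0.52 and -0.08. NOTCH2, with a transcript of 11425 bases, had its 3 lowest values in the 3 libraries with the lowest index, and JAG1, at 5940 bases, varied alike. The part of transcript length in the results was not tested as a cause. Libraries of MCF10AT1 with a similar index can be set side by side. Control b at -1.29 had 1501 normalized counts of NOTCH1, 484 of NOTCH3, 3408 of HES1 and 14.0 of HEY1. METTL3 a and b at -1.30 and -1.24 had 626 and 607 of NOTCH1, 130.0 and 38.0 of NOTCH3, 753 and 733 of HES1, and 198 and 123 of HEY1. The groups of these 4 genes did not overlap in MCF10AT1, so their side of control b was already fixed. The values are a description and not a test of transcript length.

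**Figure D3:**
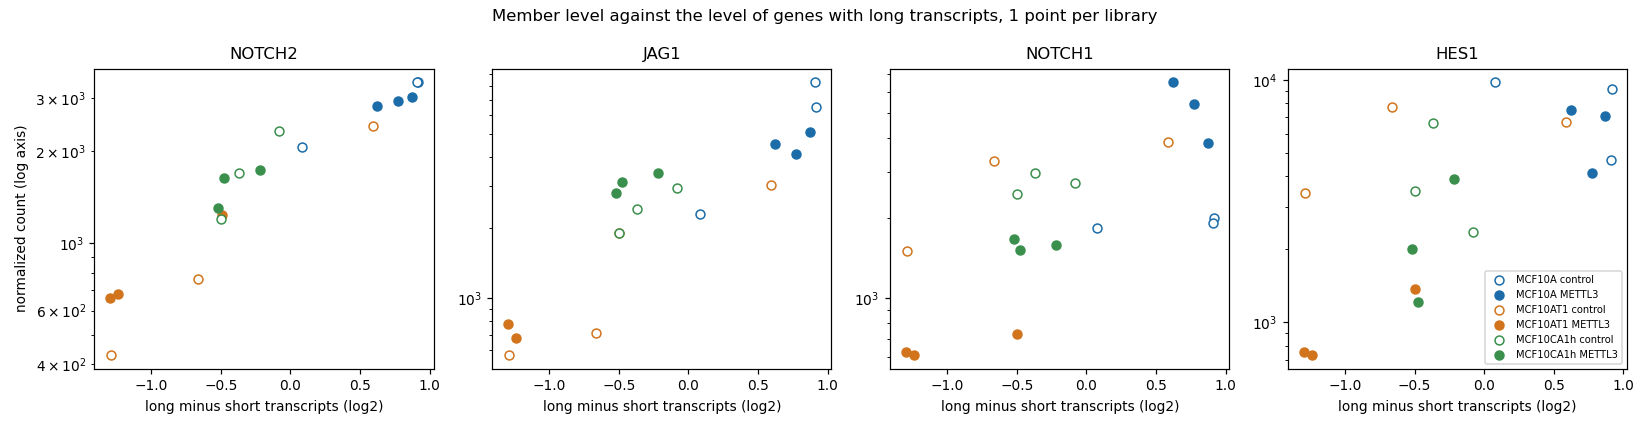
Normalized count of NOTCH2, JAG1, NOTCH1 and HES1 on a log axis against the log2 level of genes with long minus short transcripts, 1 point per library. NOTCH2 and JAG1 rise along the axis over the 18 libraries. NOTCH1 and HES1 of the MCF10AT1 METTL3 libraries lie below every control of that line, so their side of controls with a like position was already fixed. The part of transcript length was not tested.

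Among the ligands, DLL1 (chromosome 6, 170282206 to 170306565), a Delta ligand, changed most. In MCF10A the controls had 4.70, 9.02 and 9.32 normalized counts, and DLL1 reached 234, 60.3 and 66.1 in the METTL3 libraries. It rose by 3.56 (SE 0.58, adjusted p = 0.0225) on the log2 scale, an 11.8-fold difference on values plus 1. METTL3 a was well above the other METTL3 libraries, and all 3 were above every control. The call held with no filter on low values and was lost without control b, METTL3 a, METTL3 b or METTL3 c (adjusted p = 0.0695, 0.0693, 0.0516 and 0.0713). In MCF10AT1 the controls had 16.9, 0 and 12.8 and the METTL3 libraries 35.3, 38.3 and 63.4. These groups did not overlap either, but the log2 fold change of 2.85 had an adjusted p of 0.129, and 0.0293 with the replicate letter as a block. In MCF10CA1h DLL1 went the other way, from 258, 208 and 179.9 to 119, 125 and 145, and fell with a log2 fold change of -0.72 (SE 0.19, adjusted p = 0.0344). The difference of effects was -4.27 (SE 1.12, adjusted p = 0.0354) between MCF10CA1h and MCF10A, and -3.56 (SE 1.12, adjusted p = 0.0366) between MCF10CA1h and MCF10AT1. Without any 1 MCF10CA1h library, any 1 MCF10A control or MCF10A METTL3 a, the first of these had an adjusted p from 0.0592 to 0.108. Without any 1 MCF10CA1h library, MCF10AT1 METTL3 b or METTL3 c, the second had 0.0587 to 0.0806. The second call was also lost with no filter (adjusted p = 0.051) and with equal sums per library (0.0552). With a pseudocount of 0.5 both calls were lost (adjusted p = 0.0699 for the first and 0.051 for the second). The fall in MCF10CA1h kept its call without control c, and had an adjusted p from 0.0504 to 0.146 without any 1 of the other libraries.

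Neither Jagged gene passed the test between a METTL3 line and its control. JAG2 (chromosome 14, 105140982 to 105168824) had 1137, 1511 and 1304 normalized counts in the MCF10A controls and 2318, 1565 and 1815 in the METTL3 libraries. In MCF10AT1 it had 2424, 1698 and 2539.8 in the controls and 953, 1332 and 1818 in the METTL3 libraries, and in MCF10CA1h 1754, 1984 and 1683 against 1408, 1560.0 and 1409. The METTL3 libraries were thus all above the controls in MCF10A, overlapped them in MCF10AT1 and were all below them in MCF10CA1h. The adjusted p values were 0.20, 0.188 and 0.0825. The JAG2 effect did differ between MCF10AT1 and MCF10A, by -1.24 (SE 0.32, adjusted p = 0.00954).

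JAG1 (chromosome 20, 10637684 to 10673999) varied widely among the control libraries of MCF10A and MCF10AT1. MCF10A controls had 2291, 6529.7 and 8306 normalized counts and METTL3 libraries 4545, 5117 and 4099, with the METTL3 values inside the range of the controls. Without control a, the log2 difference was -0.69 (adjusted p = 0.0416) in place of -0.13 (adjusted p = 0.912). MCF10AT1 had 712, 573 and 3021 in the controls and 776, 676 and 1887 in the METTL3 libraries. Library c was highest in both of these groups. In MCF10CA1h the values were 2409, 2954 and 1896 against 3407, 3114 and 2812, and the difference of 0.38 had an adjusted p of 0.132, or 0.0333 without control b.

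LFNG (chromosome 7, 2512529 to 2529177), the fringe enzyme, had 45.5, 41.8 and 11.6 normalized counts in the MCF10A controls and 109, 167 and 109.8 in the METTL3 libraries. The groups did not overlap, and the log2 fold change of 2.12 (SE 0.52) had an adjusted p of 0.0772. It was 0.022 with the replicate letter as a block and 0.0306 without control a. In MCF10AT1 the METTL3 libraries spread from 17.5 to 173 around controls of 37.1 to 75.0, and in MCF10CA1h 166 to 204 overlapped 175 to 224. Adjusted p was 0.864 and 0.576 in those lines.

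HES1 (chromosome 3, 194136148 to 194138732), the classical Notch target, was the most abundant of the 10 genes per kilobase of transcript in every group, at 605 to 4998 normalized counts per kilobase. In MCF10AT1 it had 7694, 3408 and 6718 normalized counts in the controls and 753, 733 and 1372 in the METTL3 libraries. HES1 fell there with a log2 fold change of -2.62 (SE 0.40, adjusted p = 0.00365), 6.15-fold, with a gap between the groups. In MCF10A the libraries held 9775, 9162 and 4678 against 7498, 7126 and 4122, and in MCF10CA1h 6666, 2359.8 and 3478 against 3900.1, 1219 and 2009.7. These groups overlapped, and adjusted p was 0.675 and 0.225. In MCF10A and in MCF10CA1h alike, libraries of the same letter took the same rank in both groups, and each METTL3 library was below the control of its letter. The difference of effects between MCF10AT1 and MCF10A was -2.31 (SE 0.66, adjusted p = 0.0184), and without MCF10A control c or MCF10AT1 control a its adjusted p was 0.0538 and 0.0511.

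HEY1, a repressor related to HES1, went against HES1 in MCF10AT1. It had 5.31, 14.0 and 14.8 normalized counts in the controls and 198, 123 and 259.5 in the METTL3 libraries. HEY1 rose by 4.03 (SE 0.56, adjusted p = 0.0023) on the log2 scale, 16.3-fold on values plus 1, and kept its call with any 1 library left out (adjusted p up to 0.0143). In MCF10A 49.6, 54.4 and 62.7 in the controls stood beside 46.2, 87.1 and 81.4 (adjusted p = 0.677). In MCF10CA1h 62.8, 35.1 and 39.9 stood beside 20.8, 26.2 and 35.1 (adjusted p = 0.207). The groups overlapped in MCF10A, while in MCF10CA1h the METTL3 libraries were below the controls by the narrowest of margins. The effect in MCF10AT1 exceeded that in MCF10A by 3.71 (SE 0.59, adjusted p = 0.000224), and the effect in MCF10CA1h lay below it (log2 difference -4.74, SE 0.59, adjusted p = 2e-05). HEY2 (chromosome 6, 125747664 to 125761269) was listed between 0 and 9.20 in all 18 libraries and was not tested.

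The controls of the 3 lines were compared with each other to see how the genes differ along the progression series. At the threshold 28.1% of 15652 genes differed in MCF10AT1 from MCF10A (13.3% higher, 14.7% lower). In MCF10CA1h 37.8% differed from MCF10A (19.0% higher, 18.8% lower) and 21.8% from MCF10AT1 (11.0% higher, 10.8% lower). Of the 9 Notch genes 3 passed in the first comparison, 1 as higher. In the second 3 passed, 2 as higher, and in the third 4 passed, 3 as higher. The 3 comparisons share control libraries and are not independent of each other.

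NOTCH1 did not differ between the control lines at the threshold, with group means of 1915.3 ± 80.1, 2887.9 ± 1235.1 and 2713.1 ± 242.1 normalized counts (SD, n = 3) in MCF10A, MCF10AT1 and MCF10CA1h. Without MCF10AT1 control b, both other lines exceeded MCF10A, by 0.90 (adjusted p = 0.00798) in MCF10AT1 and 0.50 (adjusted p = 0.019) in MCF10CA1h. NOTCH3 was highest in MCF10AT1, then MCF10A, then MCF10CA1h. It was lower in MCF10CA1h than in MCF10A by a log2 fold change of -2.55 (SE 0.47, adjusted p = 0.0032) and than in MCF10AT1 by -3.83 (SE 0.47, adjusted p = 0.000719). MCF10AT1 and MCF10A did not differ for NOTCH3 at the threshold (adjusted p = 0.0667, or 0.047 without MCF10AT1 control b). NOTCH2 had the order MCF10A, MCF10CA1h, MCF10AT1, and its log2 difference of -1.63 between MCF10AT1 and MCF10A had an adjusted p of 0.0503. Without MCF10AT1 control c it was -2.33 (adjusted p = 0.00121), and NOTCH2 then also differed between MCF10CA1h and MCF10AT1 (1.56, adjusted p = 0.00923). Over all genes with a transcript of at least 6000 bases the median log2 fold change of MCF10AT1 against MCF10A controls was -0.61, and it was 0.46 over genes under 2000 bases.

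JAG1 was lower in MCF10AT1 than in MCF10A controls with a log2 fold change of -2.22 (SE 0.64, adjusted p = 0.0309). The call was lost without MCF10A control b or c, MCF10AT1 control a or b, or MCF10CA1h control a (adjusted p from 0.0509 to 0.118). JAG2 was higher in MCF10AT1 than in MCF10A by 0.74 (SE 0.21, adjusted p = 0.0291). This call was lost without any 1 of the MCF10A controls, MCF10AT1 control a, or MCF10CA1h control a or c, with adjusted p from 0.052 to 0.0951. MCF10CA1h differed from neither line for JAG1 or JAG2 at the threshold, except that JAG1 exceeded MCF10AT1 by 1.90 (adjusted p = 0.0133) without MCF10AT1 control c, and JAG2 exceeded MCF10A by 0.46 (adjusted p = 0.0381) without MCF10AT1 control b.

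DLL1 and LFNG were high in MCF10CA1h. DLL1 had 4.70 to 9.32 normalized counts in MCF10A, 0 to 16.9 in MCF10AT1 and 179.9 to 258 in MCF10CA1h controls, and reached the minimum mean through MCF10CA1h. It was higher in MCF10CA1h than in MCF10A by 4.67 (SE 0.94, adjusted p = 0.00481) and than in MCF10AT1 by 5.09 (SE 0.94, adjusted p = 0.00544) on the log2 scale, calls that also held with no filter on low values. LFNG had 11.6 to 45.5, 37.1 to 75.0 and 175 to 224, and was higher in MCF10CA1h by 2.79 (SE 0.51, adjusted p = 0.00313) and 2.02 (SE 0.51, adjusted p = 0.0216). The second of these LFNG calls was lost without MCF10AT1 control a or any 1 MCF10CA1h control (adjusted p from 0.0586 to 0.078). For neither gene did MCF10AT1 differ from MCF10A at the threshold.

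HEY1 was lowest in MCF10AT1 controls, with a log2 fold change of -2.30 (SE 0.45, adjusted p = 0.00763) against MCF10A. MCF10CA1h exceeded MCF10AT1 by 1.99 (SE 0.45, adjusted p = 0.013), or by 1.75 (adjusted p = 0.064) without MCF10CA1h control a. HES1 did not differ between the control lines at the threshold, with adjusted p from 0.112 to 0.488. Its order of means was MCF10A, MCF10AT1, MCF10CA1h, and no neighbours in that order differed beyond their spread.

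**Figure D4:**
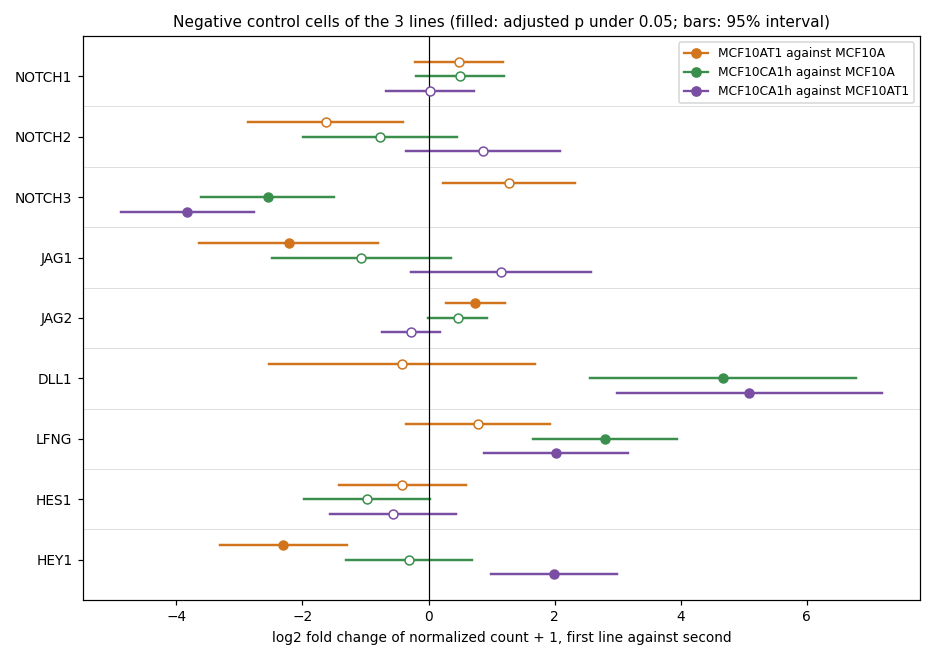
log2 fold change between the negative control cells of the 3 lines for the 9 genes tested, with 95% intervals and filled points where the adjusted p was under 0.05. DLL1 in MCF10CA1h lies at 4.67 above MCF10A and 5.09 above MCF10AT1, the widest differences shown, and NOTCH1 has no filled point.

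The other genes of the pathway came from a list of 51, of which 50 were in the table and 45 or 46 were tested, depending on the comparison. In MCF10A none passed the threshold in the METTL3 line by limma. There 2.65% of all genes passed. Without adjustment 7 of the list had p under 0.05, beside 2839 of the 15416 genes tested. With the replicate letter as a block 1 of the list passed, where 7.60% of all genes did. In MCF10AT1 1 of 46 rose and 5 fell, where 13.0% of all genes passed, or 17 in all with the block, where 24.5% did. In MCF10CA1h 4 of 45 rose and 3 fell, where 12.8% of all genes passed. The median log2 fold changes over the list were 0.06, -0.27 and -0.03.

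In MCF10AT1 RBPJ, the DNA-binding partner of the receptors, rose by 1.39 (SE 0.38, adjusted p = 0.0468), with 3332, 2152 and 1422 normalized counts in the METTL3 libraries against 598, 1029 and 925. This call was lost with no filter on low values (adjusted p = 0.0536). The HES relative HES2 fell from between 751 and 971 to between 8.07 and 43.5 (log2 fold change -5.08, adjusted p = 0.0013). Of the Deltex genes, which encode regulators of the receptor, DTX4 fell from 979.7 to 1231 down to 91.8 to 206 (-2.87, adjusted p = 0.00161) and DTX1 with a log2 fold change of -3.85 (adjusted p = 0.0167). DTX3 also passed the threshold, and it was listed at 0 in all 3 METTL3 libraries against 104 to 225 in the controls. The fringe gene MFNG fell with -3.03 (adjusted p = 0.0496), but with no filter its adjusted p was 0.0822. MFNG and DTX3 reached the minimum mean through the controls. The groups of these 6 genes did not overlap, but the genes were picked by a test on the same libraries. The share of all genes without overlap was not counted.

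In MCF10CA1h the receptor regulator DTX3L rose from 369 to 451 up to 1002 to 1478 normalized counts (log2 fold change 1.51, adjusted p = 0.000367). NEURL1, a ubiquitin ligase, rose by 2.37 (adjusted p = 0.0232) from values of at most 4.25. It reached the minimum mean through the METTL3 libraries, and with no filter its adjusted p was 0.0366. NRARP, a target gene that feeds back on the pathway, fell from 427 to 850.4 down to 204 to 234 (-1.33, adjusted p = 0.00506). The acetyltransferase KAT2B (-0.86, adjusted p = 0.0256) and the ligase NEURL1B (-0.60, adjusted p = 0.0484) fell as well, and PSENEN, which encodes a gamma-secretase subunit, rose (0.40, adjusted p = 0.0326). With no filter KAT2B kept its call (adjusted p = 0.0411), and NEURL1B (0.0649) and PSENEN (0.0541) lost theirs.

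NOTCH4 was tested in MCF10AT1 only among the METTL3 comparisons, with an adjusted p of 0.619. DLL4 lay between 1.61 and 16.6 over the 18 libraries and DLL3 between 18.7 and 124. DLL3 passed in no METTL3 comparison (adjusted p from 0.489 to 0.985). HES4 had log2 fold changes of -1.08, -1.82 and 0.36 with adjusted p of 0.26, 0.0851 and 0.315, and NRARP -0.61 in MCF10A and 1.07 in MCF10AT1 with adjusted p of 0.732 and 0.147. HEYL was not analysed here.

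**Figure D5:**
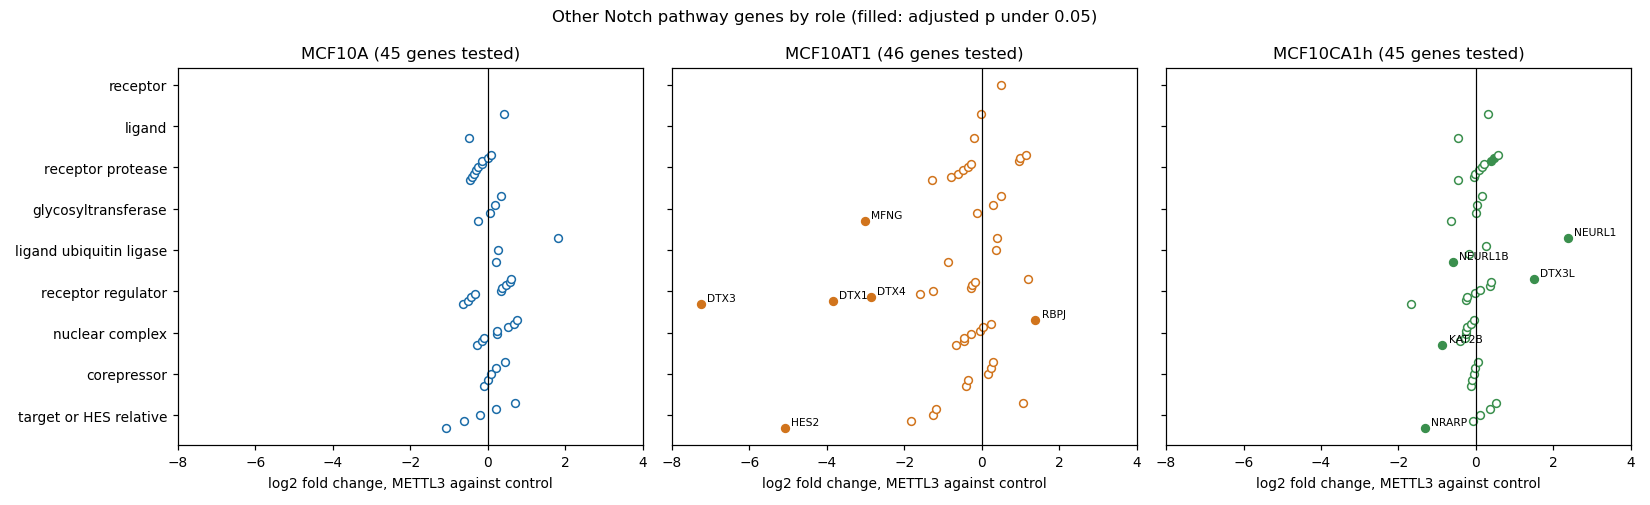
log2 fold change of the METTL3 line against its control for the other Notch pathway genes tested, grouped by role, with filled points where the adjusted p was under 0.05 and names for the 5 largest of these per line and RBPJ. No point is filled in MCF10A, 6 are in MCF10AT1 and 7 in MCF10CA1h. HES2 at -5.08 and the Deltex genes DTX1, DTX3 and DTX4 lie far to the left in MCF10AT1. The Deltex genes DTX2 and DTX3L lie at -0.17 and -0.27 there.

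In the control cells, 9 of 45 listed genes passed between MCF10AT1 and MCF10A, 4 as higher, against the 28.1% of all genes given above. Between MCF10CA1h and MCF10A 18 passed, 8 as higher, against 37.8%, and between MCF10CA1h and MCF10AT1 11 passed, 5 as higher, against 21.8%. The ligase NEURL1B was higher along the series, by 3.24 (adjusted p = 0.00222) in MCF10AT1 and 4.96 (adjusted p = 0.000147) in MCF10CA1h against MCF10A, and by 1.73 (adjusted p = 0.0269) in MCF10CA1h against MCF10AT1. NRARP exceeded MCF10A by 3.55 (adjusted p = 0.00168) in MCF10CA1h. HES7 was higher than in MCF10A by 2.90 in MCF10AT1 (adjusted p = 0.00128) and by 2.70 in MCF10CA1h (adjusted p = 0.000858). In the other direction, the gamma-secretase gene APH1B was lower in MCF10CA1h than in MCF10AT1, with a log2 fold change of -3.13 (adjusted p = 0.00083). DTX3 was lower by -3.69 (adjusted p = 0.000307) there. The receptor protease ADAM10 had -2.03 (adjusted p = 0.04) in MCF10AT1 against MCF10A, with 233 to 1441 normalized counts in MCF10AT1 controls and 1058 to 2875 in MCF10A controls. Its highest MCF10AT1 value was again in control c and its lowest MCF10A value in control a.

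Patterns most like those of the members were sought over the 18 libraries among genes with a mean of at least 50, by Pearson's r of log2 values. The libraries share cell line, clone and the length feature above, so r is a description. DLL1, with the widest range of group means (5.09 in log2), was most like UPF1 (r = 0.926), CHERP (0.893) and GALNT2 (0.879). NOTCH1 was most like ADGRA3 (0.932), LRIG3 (0.924) and BRMS1L (0.923), and JAG2 like SLC1A3 (0.88), ZNF195 (0.833) and TYW1 (0.83). The closest patterns to HES1, named after their values were seen, were those of EGR1 (0.969), TRIB1 (0.952) and FOS (0.941).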

How the data were processed

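The authors pseudo-aligned paired-end reads to the human hg38 transcriptome with Kallisto 0.46.1, took gene sums through tximport and normalized with DESeq2 1.26.0 in R 4.1.1. The annotation release was not given in the sources used here. The kit named in the methods is a stranded total RNA kit with ribosomal depletion, but polyA RNA is named in its heading and in the labels, and which was sequenced is not settled. The deposited values are these normalized counts, a signal and not whole reads, so no interval for counting error is given and depth per gene is unknown. Symbols were found for 35894 of 35933 genes with values. The other 24646 listed genes had no full set of values and were left out.

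Tests were run with limma 3.58.1 (lmFit, then eBayes with its trend option, two-sided) in R 4.3.3 on log2(value + pseudocount), with a pseudocount of 1. Genes had to reach a mean of at least 10, with Benjamini-Hochberg adjustment over all genes tested and a threshold of 0.05. Each line was fitted alone, the 9 control libraries together, and differences of effects as interaction contrasts over 18 libraries. The labels do not name separate cultures, so p-values measure the spread between these libraries, which may be technical. Tables and figures came from Python 3.11.15, with SciPy 1.17.1, NumPy 2.4.6 and pandas 2.3.3. The fit was tested on simulated data. Whether replicate letters pair the libraries was checked over 15897 genes. Libraries of the same letter deviated together in MCF10A (r = 0.22, 0.20 and 0.12), where r between different letters was -0.17 to 0.0087. They also did in MCF10AT1 (r = 0.11, 0.29 and 0.48). There control b and METTL3 a had r = 0.25, so pairing by letter is less clear in MCF10AT1. For the METTL3 comparisons of these lines a fit with the letter as a block is given beside results whose call it changes. The length feature used 2212 genes with a canonical transcript of at least 6000 bases and 3324 under 2000 bases, with a mean of at least 50. The rule for named genes takes all 10 members, up to 5 pathway genes per comparison with the largest change among those past the threshold, and NOTCH4, DLL3, DLL4, RBPJ, HEYL, NRARP and HES4. A further pathway gene given (PSENEN) and the genes most like HES1 were named after their values were seen. A pathway gene that passed the threshold is not reported here. The members and lists were chosen with earlier results of these data known. Alternatives were pseudocounts of 0.5 and 5, no filter or a minimum mean of 50, a joint fit, equal sums per library, no intensity trend, the replicate block and each library left out.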

Additional observations from a re-analysis of the deposited data

Results flagged for a closer look

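In tests of the difference itself, the effect of the METTL3 line differed between cell lines for some of the 9 genes tested. Between MCF10AT1 and MCF10A it differed for 5, where it did for 21.6% of 15897 genes. Between MCF10CA1h and MCF10A it differed for 2, against 5.34%, and between MCF10CA1h and MCF10AT1 for 4, against 18.2%. Each such log2 difference is given here because it passed that test. NOTCH1 differed between all pairs of lines, by -3.46 (MCF10AT1 minus MCF10A), -2.19 (MCF10CA1h minus MCF10A) and 1.27 (MCF10CA1h minus MCF10AT1). NOTCH3 differed by -3.22 (MCF10AT1 minus MCF10A) and 2.99 (MCF10CA1h minus MCF10AT1). JAG2 passed in no line by itself and differed by -1.24 between MCF10AT1 and MCF10A, with its METTL3 libraries all above the controls in MCF10A and overlapping them in MCF10AT1. DLL1 differed by -4.27 between MCF10CA1h and MCF10A and by -3.56 between MCF10CA1h and MCF10AT1. HES1 differed by -2.31 between MCF10AT1 and MCF10A. HEY1 differed by 3.71 between MCF10AT1 and MCF10A and by -4.74 between MCF10CA1h and MCF10AT1. The calls of NOTCH1 between MCF10AT1 or MCF10CA1h and MCF10A, of NOTCH3 and JAG2 between MCF10AT1 and MCF10A, and of both HEY1 differences held with any 1 library left out.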

How the results depend on the processing

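The depth per gene is unknown, each group is 1 clone with 3 libraries, and MCF10AT1 controls spread widely, which limits what MCF10AT1 comparisons can show for long genes such as NOTCH2 and JAG1. Of 576 alternative values for log2 fold changes past the threshold, 498 kept their direction and call, 78 kept their direction only and 0 changed direction. The cause was not tested where a value moved.

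Counts of the 9 genes past the threshold moved by over 1.5 times in 6 of 75 other settings. In the MCF10CA1h METTL3 comparison the count of 2 became 1 with no intensity trend and 0 in the joint fit of 18 libraries, and DLL1 lost its call in both. Leaving out MCF10A control a and MCF10AT1 control c together, a setting chosen after seeing the data, gave 5 in place of 3 between MCF10CA1h and MCF10A controls, where NOTCH2 and JAG1 passed. For the difference of effects, MCF10CA1h minus MCF10A gave 1 with a pseudocount of 0.5, and MCF10CA1h minus MCF10AT1 gave 2 with equal sums and 2 without those 2 libraries. Counts of pathway genes moved to 16 (joint fit, main value 6) in MCF10AT1, to 1 (joint fit, main value 7) in MCF10CA1h, and between MCF10AT1 and MCF10A controls (main value 9) to 5 with no filter, 4 with no intensity trend, 5 with equal sums and 25 without the 2 libraries. They moved to 25 between MCF10CA1h and MCF10AT1 controls and to 3 for MCF10CA1h minus MCF10A without those libraries.

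With the replicate letter as a block, the Notch genes called numbered 3, 5 and 2 in MCF10A, MCF10AT1 and MCF10CA1h, 2, 3 and 4 between the controls, and 5, 2 and 5 for the differences of effects. Pathway genes called numbered 1, 17 and 8, then 7, 16 and 9, then 11, 2 and 13. In MCF10CA1h, where same-letter libraries did not deviate together (r = -0.011, 0.017 and 0.046), HES1 passed under the block (adjusted p = 0.00118) and DLL1 did not (0.0516). Between MCF10AT1 and MCF10A controls JAG2 did not (0.0564).

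With each library left out, the count of Notch genes called ranged from 0 to 4 in MCF10A, from 3 to 4 in MCF10AT1 and from 1 to 2 in MCF10CA1h. It ranged from 1 to 4, 3 to 5 and 2 to 6 between the controls (MCF10AT1 and MCF10A, MCF10CA1h and MCF10A, MCF10CA1h and MCF10AT1), and from 4 to 6, 1 to 3 and 1 to 5 for the differences in the order MCF10AT1 minus MCF10A, MCF10CA1h minus MCF10A and MCF10CA1h minus MCF10AT1. Pathway genes ranged from 0 to 2, 3 to 7 and 2 to 8, then from 2 to 25, 12 to 22 and 3 to 22, then from 9 to 16, 1 to 2 and 10 to 15.

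Values that changed sign were all short of the threshold, except that JAG1 in MCF10A, which ranged from -0.69 to 0.24 with each library left out, passed as lower without control a. NOTCH3 in MCF10A became 0.0001 with a pseudocount of 5 and 0.082 with equal sums, and DLL1 between MCF10AT1 and MCF10A controls became 0.0007 with a pseudocount of 5. With each library left out, log2 fold changes ranged from -0.21 to 0.14 for NOTCH2 and -0.65 to 0.73 for NOTCH3 in MCF10A, from -0.72 to 0.53 for NOTCH2, -0.57 to 0.64 for JAG1 and -0.51 to 1.11 for LFNG in MCF10AT1, and from -0.37 to 0.11 for NOTCH2 in MCF10CA1h. They ranged from -1.17 to 0.91 for DLL1 between MCF10AT1 and MCF10A controls and from -0.40 to 0.28 for NOTCH1 between MCF10CA1h and MCF10AT1 controls.

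Equal sums shifted the median log2 fold change of all genes from 0.021 to -0.15 in MCF10AT1, from -0.014 to -0.15 between MCF10AT1 and MCF10A controls, from 0.047 to 0.16 between MCF10CA1h and MCF10AT1 controls, from -0.0045 to -0.26 for MCF10AT1 minus MCF10A and from -0.027 to -0.17 for MCF10CA1h minus MCF10A. Of the genes past the threshold in the last 2, the shares with a positive difference were 51.6% as deposited and 39.6% with equal sums, and 68.3% and 58.5%.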
